A study of Mus musculus with 12 samples.

Results

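The 36 genes described here encode collagen chains. They were the genes with a symbol of the form Col, number, a, number among the 15129 genes that had a probe set with a single gene symbol, and all 36 were measured, by 57 probe sets. Where a gene had several, the brightest over the 12 arrays (by mean log2 signal) stood for it. RNA came from the small intestine of 12 mice, 3 for each of 4 genotypes, with 1 Affymetrix array per mouse. Double-deficient mice were Cre+Apcfl/flp53-/- (gap346, gap397 and gap429), Apc-deficient mice Cre+Apcfl/flp53+/+ (D5fl_331u, D5fl_444t and D5fl_131u), p53-deficient mice Cre+Apc+/+p53-/- (GAP901, GAP940 and GAP886) and control mice Cre+Apc+/+p53+/+ (d5wt_110u, d5wt_323u and d5wt_474u). All mice, controls included, carried the Ah-cre transgene, a Cre recombinase under an inducible Cyp1a promoter. All received β-naphthoflavone at 80 mg/kg, which the sample labels give as 3 injections within 1 day and the methods as daily injections, and tissue was taken at day 5. The p53 allele was null in every cell of the mouse, whereas Apc was deleted only where Cre had acted. Ages are not given in the labels.

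Collagens are the structural proteins of the extracellular matrix, built from chains that wind into a triple helix. Fibrillar collagens (types I, III and V) form the fibres of the lamina propria and submucosa, type IV forms the network of the basement membrane beneath the epithelium, and type VI forms beaded filaments. Fibril-associated collagens such as types XII and XIV decorate the fibres. In the intestine most of these chains are made by fibroblasts, smooth muscle and endothelium rather than by the epithelium.

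The brighter of the p53 probe sets, which had a scaled signal of 7.53 ± 6.59 in double-deficient, 344 ± 63.9 in Apc-deficient, 10.03 ± 2.02 in p53-deficient and 222 ± 44.9 in control intestines (mean ± SD, n = 3 each), followed the labelled genotypes. A second one, undetected in control and Apc-deficient intestines and detected on 1 p53-deficient array, did not. It read 71.1 ± 13.1 in double-deficient, 16.8 ± 4.29 in Apc-deficient, 32.9 ± 16.3 in p53-deficient and 24.9 ± 5.69 in control intestines, and was called higher in double-deficient against control (adjusted p = 0.023). Epithelial markers were present throughout, with 9 of 9 detected on all 9 arrays that had detection values and a median log2 signal of 11.46 or more on every array. Their levels differed between genotypes, with medians of 11.46 to 11.98 in double-deficient, 11.73 to 12.71 in Apc-deficient, 12.90 to 13.18 in p53-deficient and 12.28 to 12.54 in control intestines. Of the 9, Cdh1, Cdx1 and Cdx2 were called higher in Apc-deficient against control, Krt20 lower in double-deficient against control, and Krt20 and Vil1 lower in double- against p53-deficient intestines. Over all genes tested, 19.3%, 7.69% and 6.65% were called in these directions and comparisons, in that order. The arrays differed in muscle wall and in pancreas. The median log2 signal of 10 smooth muscle markers was 7.33 on control array d5wt_110u and 7.78 on p53-deficient array GAP940, against 8.73 to 9.87 on the other arrays, and exocrine pancreas markers were high on control array d5wt_474u (median 12.69) and double-deficient array gap429 (median 11.35). Codes in the deposited column names each hold 1 genotype and their meaning is not stated, so that if they mark array runs, run and genotype cannot be told apart. In whole tissue, fewer cells of a type and less RNA per cell also cannot be told apart, and this applies to every collagen value below.

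Of the 36 collagen genes, 13 were detected (detection p under 0.05) on all 9 arrays whose detection values could be tied to a mouse, those of the Apc-deficient, p53-deficient and control genotypes. These were Col1a1, Col1a2, Col3a1, Col4a1, Col4a2, Col5a1, Col5a2, Col6a1, Col6a2, Col6a3, Col6a4, Col14a1 and Col15a1, that is the main fibrillar chains, the pair of common type IV chains, most type VI chains and 2 chains associated with fibres or basement membrane. A further 10 were detected on some of the 9 arrays and 13 on none, among them Col4a3, Col9a1, Col11a2 and Col27a1. Values of undetected genes are signals that could not be told from background and are given without a fold. Scaled signals are linear intensities after each array was set to the same mean log2 signal, and a log2 difference of 1 is a doubling. A gene was called where the limma adjusted p, taken over all probe sets, was under 0.05.

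**Figure D1:**
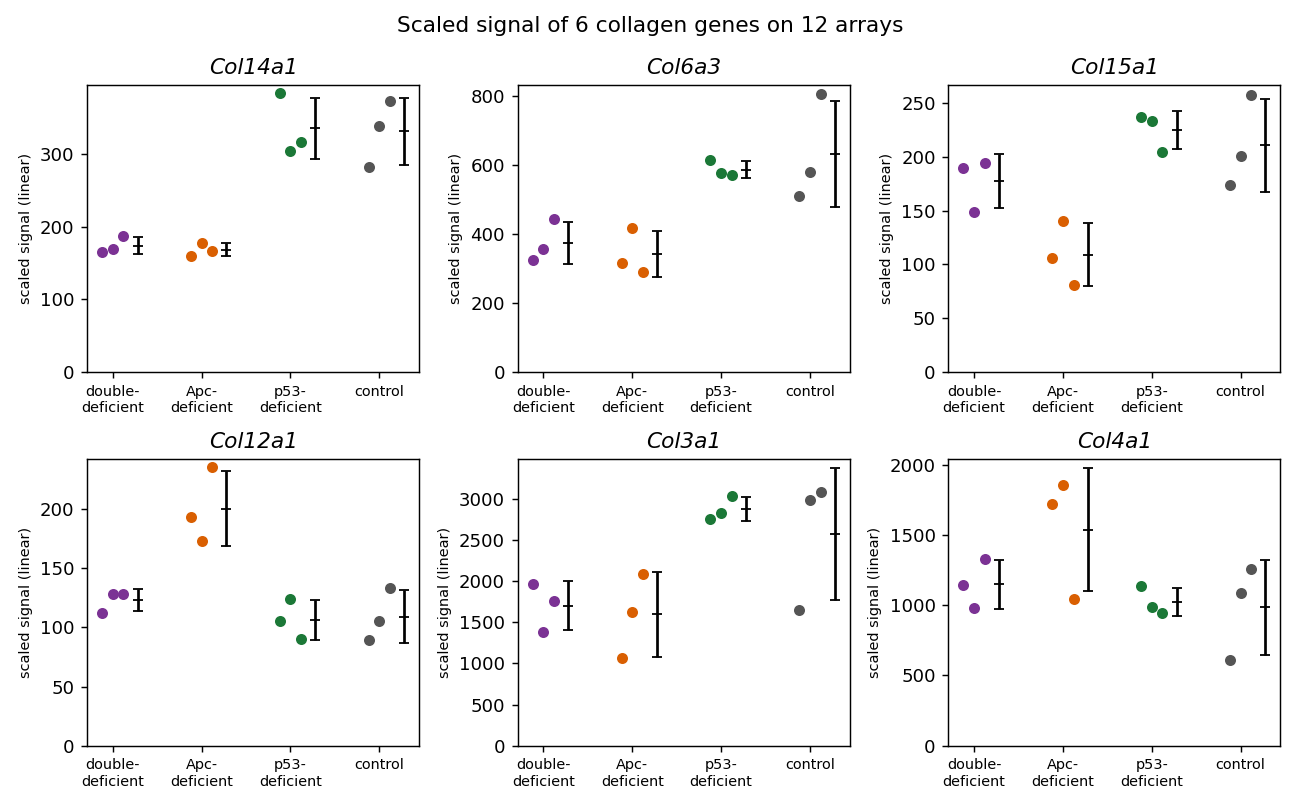
Scaled signal (linear axis from 0) of 6 collagen genes on each of the 12 arrays, grouped as double-deficient, Apc-deficient, p53-deficient and control, with 1 point per mouse and a bar for the mean ± SD of each genotype (n = 3). Col14a1 lay between 160.1 and 187 on the 6 arrays of Apc-deleted intestines, below the 282 to 383 of the 6 arrays with intact Apc.

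Col14a1, which encodes the chain of type XIV collagen, a fibril-associated collagen of soft connective tissue, was the gene with the clearest difference. Its scaled signal was 165, 169 and 187 in double-deficient, 160.1, 177 and 166 in Apc-deficient, 383, 304 and 317 in p53-deficient and 282, 338 and 372 in control intestines. Every array of the Apc-deleted genotypes lay below every array with intact Apc, and the arrays overlapped within each of these pairs of genotypes. Against control, 22.4% of all genes were lower without overlap in double-deficient and 20.4% in Apc-deficient intestines. The share of all genes that separate over the pooled genotypes, as Col14a1 did, was not counted. Against control, Col14a1 fell by 0.92 on the log2 scale in double-deficient intestines (SE 0.19, adjusted p = 0.012, limma) and by 0.97 in Apc-deficient intestines (adjusted p = 0.0049). It also fell by 0.94 in double-deficient relative to p53-deficient intestines (adjusted p = 0.012). These comparisons share arrays, the first with the second the control arrays, and the first with the last the double-deficient ones. The difference between double- and Apc-deficient intestines was 0.05 (95% interval -0.36 to 0.46, adjusted p = 0.92), and that between p53-deficient and control intestines was 0.02 (95% interval -0.39 to 0.43, adjusted p = 0.97). The call against control in Apc-deficient intestines was kept under all 22 alternative settings. In double-deficient intestines it was lost in 1 setting, the omission of d5wt_474u and gap429 together (adjusted p = 0.081, with 0.0024 to 0.081 over all settings). The call against p53-deficient intestines was lost in 3 of 22 settings, without those 2 arrays (adjusted p = 0.058), without gap397 (0.053) and without scaling between arrays (0.17), with 0.0031 to 0.17 over all of them. A second Col14a1 probe set, mostly at background (detected on 0 Apc-deficient arrays, 1 p53-deficient array and 1 control array), read 59.7 ± 31.7 in double-deficient, 75.5 ± 11.5 in Apc-deficient, 127 ± 32.1 in p53-deficient and 131.4 ± 18.3 in control intestines, and was called in double-deficient against control (adjusted p = 0.043) but not in Apc-deficient against control (adjusted p = 0.14).

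The comparison of Apc-deficient with control intestines asks what Apc deletion does with p53 intact. Here 1 collagen gene was higher and 6 were lower, 7 of 36, while 31.6% of all genes tested were called, 19.3% higher and 12.3% lower. Among the collagens, 2.78% were thus called higher and 16.7% lower. The median log2 difference was -0.39 over the 36 collagens and 0.06 over all genes, and 25 of the 36 had a negative sign. Both values include the 13 genes detected on none of the 9 arrays. Among genes detected on all 9, Col4a1, Col4a2, Col5a2, Col6a1 and Col6a2 had a positive sign and the rest a negative one. The share of negative signs over all genes was not counted. Of the 6 lower genes, 3 (Col6a3, Col14a1 and Col15a1) were detected, and 3 (Col4a3, Col9a1 and Col27a1) were undetected in both genotypes. Without scaling between arrays, where the median of all probe sets shifted by -0.66, the log2 difference was -1.54 for Col6a3, -1.64 for Col14a1 and -1.63 for Col15a1, and all were called. The arrays did not overlap for 1 collagen that was higher (27.5% of all genes were) and 7 that were lower (20.4%).

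Col6a3 encodes the largest chain of type VI collagen, the filament that links cells to the fibres around them. Its signal was 317, 419 and 291 in Apc-deficient intestines and 511, 582 and 806 in control intestines, without overlap, and it fell by 0.88 on the log2 scale (SE 0.23, adjusted p = 0.019). In double-deficient intestines it read 326, 357 and 443, a log2 difference from control of -0.74 that was not called (adjusted p = 0.053), and in p53-deficient intestines 615, 577 and 570.3. The Apc-deficient call was lost in 5 of 22 settings, among them the omission of control d5wt_474u (adjusted p = 0.072), Apc-deficient D5fl_331u (0.051) or D5fl_131u (0.059), with a range of 0.0038 to 0.083 over all of them.

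Col15a1 encodes the chain of type XV collagen, a basement membrane zone collagen found around muscle cells and capillaries. Its signal was 106, 140.1 and 81.3 in Apc-deficient intestines against 174, 201 and 258 in control intestines, and it fell by 0.97 on the log2 scale (SE 0.24, adjusted p = 0.016). Unlike Col6a3 and Col14a1, its double-deficient arrays, at 189, 148 and 195, lay above the Apc-deficient ones without overlap and overlapped the control arrays. The double-deficient difference was 0.73 against Apc-deficient (95% interval 0.19 to 1.27, adjusted p = 0.19) and -0.24 against control (adjusted p = 0.52), and neither was called. The interaction of Apc and p53 loss was not called for Col15a1 either (adjusted p = 0.43), so a difference between the genotypes in the effect of Apc loss was not shown. The p53-deficient arrays read 237, 234 and 205. The Apc-deficient call was lost in 4 of 22 settings, among them those without control d5wt_474u (adjusted p = 0.061) and without Apc-deficient D5fl_131u (0.052), with 0.0036 to 0.082 over all of them.

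The promoter strands of these 2 genes are shown because they were the called genes detected on all 9 arrays with detection values for which RefSeq promoters (GRCm38.p6) were at hand, together with Col1a2 as a fibrillar gene that was not called. Each is the 120 bases before the annotated start. Capitals mark a CCAAT motif, and neither of the called genes holds any of the 4 motifs searched in these bases. Col6a3 lies at chr1:90843972-90844091 on the minus strand, Col15a1 at chr4:47207892-47208011 on the plus strand and Col1a2 at chr6:4505498-4505617 on the plus strand.
Col6a3: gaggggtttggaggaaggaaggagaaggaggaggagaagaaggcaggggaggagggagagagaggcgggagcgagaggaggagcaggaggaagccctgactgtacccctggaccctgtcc
Col15a1: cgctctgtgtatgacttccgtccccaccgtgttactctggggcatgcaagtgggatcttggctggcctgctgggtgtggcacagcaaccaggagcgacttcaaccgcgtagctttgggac
Col1a2: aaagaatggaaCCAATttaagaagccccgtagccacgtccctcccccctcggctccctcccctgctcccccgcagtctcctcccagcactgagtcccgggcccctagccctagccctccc
Over windows of 300 bases, from 250 before to 50 after the start, 29 of the 36 collagen genes had a promoter, and both strands were searched. A collagen gene was counted if any of its windows held the motif, whereas the share over all promoters is of single windows. Genes with several windows thus had more chances, and the shares are not like for like. The CCAAT motif was in 12 of the 29 (41.4%), against 37.4% of 32851 mouse promoter windows. GGGCGG, the GC box, was in 20 of 29 (69.0%) against 35.7%, and TATAAA was in 3 of 29 (10.3%) against 13.6%. CTTTGAT, a core sequence of TCF/LEF factors, which act downstream of β-catenin, was in 0 of 29 against 3.73% of all windows, which says only that these letters are not in these windows.

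Col12a1 was the only collagen gene called higher in any comparison. It encodes type XII collagen, a fibril-associated collagen of tissues under tension. Its signal was 193, 173 and 235 in Apc-deficient intestines and 88.9, 105 and 133 in control intestines, where it was undetected. The fold was 1.85 by the mean signals (log2 difference 0.88, SE 0.22, 95% interval 0.40 to 1.37, adjusted p = 0.015). That fold is a lower bound only in so far as the control signals are background. Double-deficient arrays read 112, 128 and 128, all below the Apc-deficient arrays (log2 difference -0.69, adjusted p = 0.16, not called), and p53-deficient arrays 105, 124 and 90.3. The call was lost without control d5wt_110u (adjusted p = 0.058), and without scaling between arrays the log2 difference was 0.22 (adjusted p = 0.60), the range over 22 settings being 0.012 to 0.60. A second probe set, detected on 1 Apc-deficient array only, was not called (adjusted p = 0.25). Another was undetected on all 9 arrays and is given no value.

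The undetected genes that were called lower came from several classes. Col27a1, a fibrillar chain known from cartilage, read 84.9 ± 22.9 in double-deficient, 75.0 ± 11.8 in Apc-deficient, 119 ± 8.14 in p53-deficient and 147 ± 10.1 in control intestines (adjusted p = 0.033 and 0.010 for double- and Apc-deficient against control). Col9a1, also a cartilage collagen, read 81.6 ± 10.6 in Apc-deficient and 166 ± 6.06 in control intestines (adjusted p = 0.022). Col4a3, a type IV chain of kidney and lung basement membranes, read 31.4 ± 15.8 in Apc-deficient and 139 ± 66.6 in control intestines (adjusted p = 0.018). The Col27a1 call in double-deficient intestines was lost without d5wt_110u, d5wt_323u, d5wt_474u, gap397 or gap429 (adjusted p = 0.070 to 0.12), the Col9a1 call without d5wt_110u, d5wt_323u, d5wt_474u or D5fl_331u (adjusted p = 0.051 to 0.065) and the Col4a3 call without d5wt_110u, d5wt_474u or D5fl_131u (adjusted p = 0.056 to 0.069). Since none was detected on any of the 9 arrays, these differences lie within signals not told from background.

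**Figure D2:**
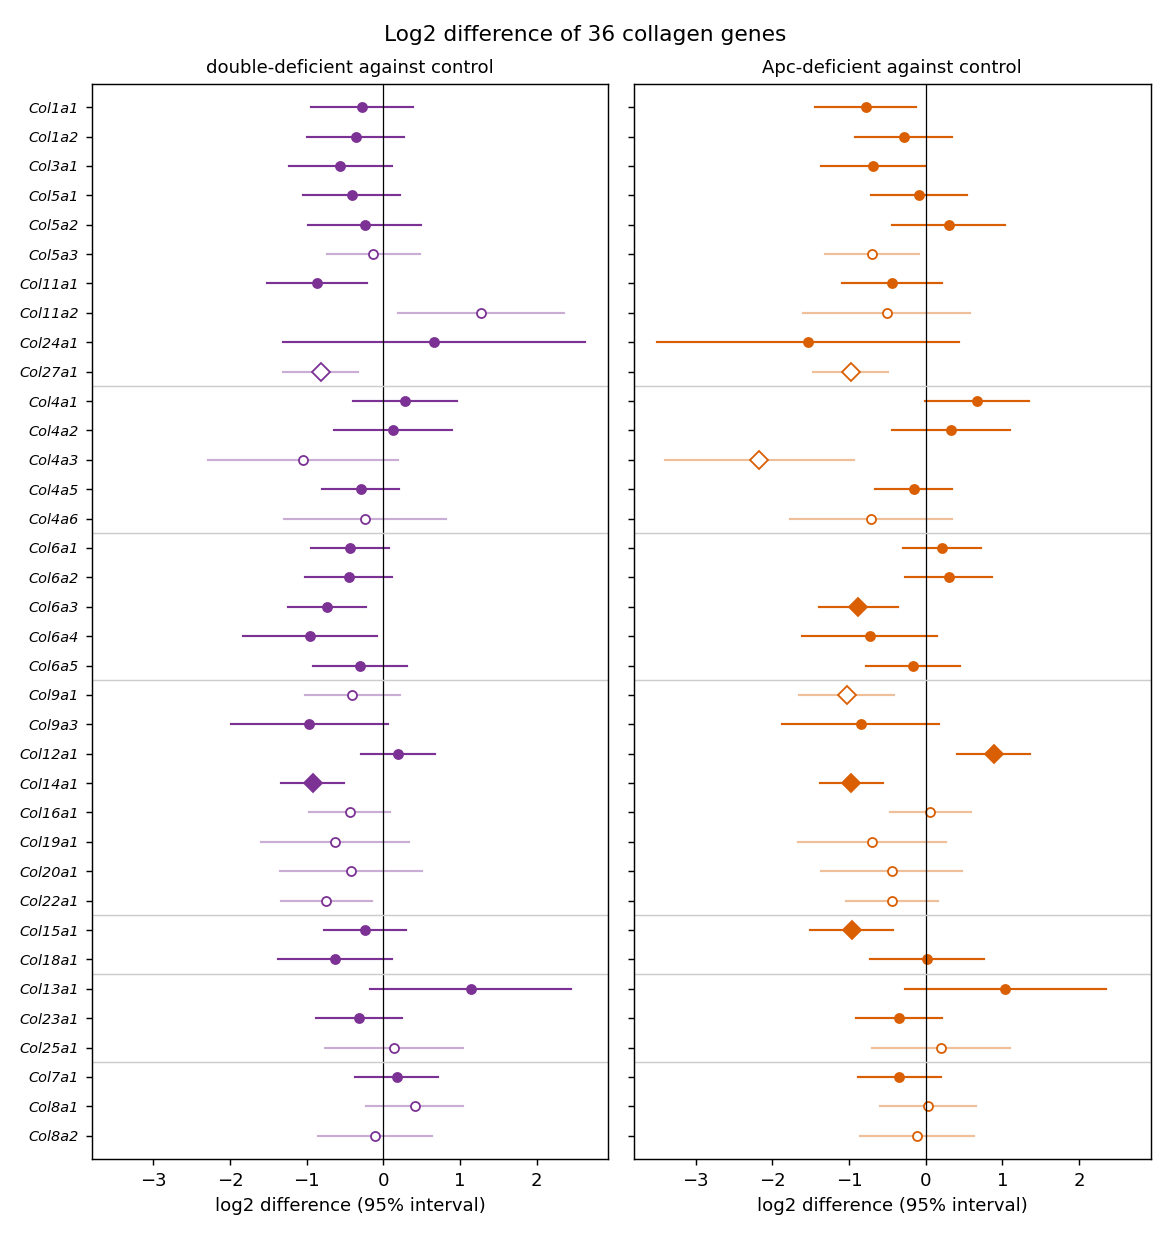
Log2 difference from control (points) with the 95% interval (lines) of the 36 collagen genes, in double-deficient intestines in the left panel and Apc-deficient intestines in the right panel. Diamonds mark called genes, of which there were 2 in double-deficient and 7 in Apc-deficient intestines, circles mark genes not called, and open symbols mark genes undetected on all 9 arrays with detection values.

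In double-deficient against control intestines, 2 of 36 collagens were called, both lower, Col14a1 and Col27a1, which was undetected in controls, while 17.2% of all genes were called, 9.54% higher and 7.69% lower. The median was -0.34 over the collagens and -0.02 over all genes, and 27 of 36 had a negative sign. Both values again include the 13 undetected genes. Among genes detected on all 9 arrays with detection values, Col4a1 and Col4a2 had a positive sign and the rest a negative one. The share of negative signs over all genes was not counted here either. The arrays did not overlap for 7 collagens that were lower (22.4% of all genes were) and 2 that were higher (24.4%), so non-overlapping collagens were no more frequent than non-overlapping genes in general. Besides those described, Col6a4, another type VI chain, read 80.9, 118 and 174 in double-deficient intestines and 196, 228 and 269 in control intestines, a log2 difference of -0.95 that was not called (adjusted p = 0.12).

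Double-deficient against p53-deficient intestines, the comparison of Apc deletion without p53, gave 1 called collagen, Col14a1, lower, with 11.7% of all genes called, 5.01% higher and 6.65% lower. Here 10 collagens were lower without overlap (22% of all genes were) and 0 were higher without overlap (17.7%). They included Col3a1, Col6a1, Col6a2 and Col6a3, of which none was called, and the median was -0.24 against -0.06 over all genes.

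Comparing p53-deficient with control intestines, limma called 0 of 36 collagens, with 0.265% of all genes called (0.106% higher and 0.159% lower), and 2 higher and 2 lower had an unadjusted p under 0.05. The smallest adjusted p was 0.11. The signs were even, 18 positive and 18 negative, and the median log2 difference was -0.0058, against 0.10 over all genes. Without overlap, 2 collagens were higher (17.6% of all genes were) and 4 were lower (9.22%). The lowest adjusted p belonged to Col9a3, which was detected on the control arrays but on 0 p53-deficient arrays. Double-deficient against Apc-deficient intestines, the comparison that asks what p53 adds once Apc is gone, also gave 0 calls (0.113% of all genes, 0.0596% higher and 0.053% lower), with 4 higher and 3 lower at an unadjusted p under 0.05. Without overlap, 4 collagens were higher (6.93% of all genes were) and 5 were lower (14.8%). The interaction gave 0 calls among the collagens and 0% among all genes, with 1 higher and 2 lower at an unadjusted p under 0.05. For these 3 contrasts the share of all genes with an unadjusted p under 0.05 was not counted. The unadjusted counts therefore cannot be read as a result about collagens.

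No detected fibrillar chain was called in any comparison. Type I collagen is the main fibre of most connective tissue, and its chains are Col1a1 and Col1a2. Col1a1 read 472, 365 and 482 in double-deficient, 249, 438 and 266 in Apc-deficient, 609, 502 and 362 in p53-deficient and 395, 557 and 672 in control intestines. Its log2 difference from control was -0.28 in double-deficient intestines (adjusted p = 0.54) and -0.78 in Apc-deficient intestines (95% interval -1.44 to -0.12, adjusted p = 0.075). All genotypes overlapped for Col1a2, which read 1073, 625 and 927 in double-deficient, 753, 1094 and 876 in Apc-deficient, 984, 997 and 1004 in p53-deficient and 740.3, 1267 and 1401 in control intestines. Col3a1, the chain of type III collagen of elastic tissues and gut wall, read 1959, 1376 and 1761 in double-deficient, 1068, 1628 and 2091 in Apc-deficient, 2758, 2822 and 3036 in p53-deficient and 1651, 2979 and 3085 in control intestines. Its 3 p53-deficient arrays stood close together above all Apc-deleted arrays, and the low control array was d5wt_110u. The log2 difference of Col3a1 was -0.56 in double-deficient (adjusted p = 0.23) and -0.69 in Apc-deficient intestines (adjusted p = 0.12), against control, and -0.77 in double- against p53-deficient intestines (adjusted p = 0.14). Col5a1 and Col5a2, chains of type V collagen that help to start fibres, differed from control by -0.41 and -0.24 in double-deficient intestines (adjusted p = 0.33 and 0.64) and by -0.09 and 0.30 in Apc-deficient intestines (adjusted p = 0.84 and 0.53). Over the 10 fibrillar genes measured, 1 was called lower in each of the double-deficient and Apc-deficient comparisons with control, the undetected Col27a1. The medians were -0.32 and -0.60, against -0.02 and 0.06 over all genes. Both medians include genes undetected on all 9 arrays (Col5a3, Col11a2 and Col27a1). The chains detected on all 9 differed in Apc-deficient intestines by -0.78 (Col1a1), -0.29 (Col1a2), -0.69 (Col3a1), -0.09 (Col5a1) and 0.30 (Col5a2).

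Type IV collagen of all basement membranes is made of the Col4a1 and Col4a2 chains, whose genes lie head to head on chromosome 8. In RefSeq their annotated starts overlap by 22 bases (chr8:11312805-11312826, GRCm38.p6, plus strand), with Col4a1 starting at 11312826 on the minus strand and Col4a2 at 11312805 on the plus strand. This stretch is shown because both transcripts begin in it, with the GC box in capitals.
Col4a1 and Col4a2: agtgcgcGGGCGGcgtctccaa
Col4a1 read 1140.3, 982 and 1330.05 in double-deficient, 1719, 1855 and 1041 in Apc-deficient, 1134, 990.1 and 944 in p53-deficient and 608, 1088 and 1259 in control intestines. Col4a2 read 542, 459 and 672 in double-deficient, 799, 769 and 419 in Apc-deficient, 541, 460.4 and 367 in p53-deficient and 312, 608 and 681 in control intestines. Both were lowest on control d5wt_110u, and both were low on Apc-deficient D5fl_131u relative to the other Apc-deficient arrays. The log2 difference between Apc-deficient and control intestines was 0.67 for Col4a1 (adjusted p = 0.13) and 0.33 for Col4a2 (adjusted p = 0.51). Without scaling between arrays both signs turned (0.67 became -0.0015 for Col4a1 and 0.33 became -0.34 for Col4a2). A second Col4a1 probe set was undetected on all 9 arrays. Within each array the log2 ratio of Col4a1 to Col4a2 signal was 0.99 to 1.10 in double-deficient, 1.10 to 1.31 in Apc-deficient, 1.07 to 1.36 in p53-deficient and 0.84 to 0.96 in control intestines.

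The chains of type VI collagen did not vary alike. Col6a1 read 827, 831 and 959.99 in double-deficient, 1329, 1511 and 1267 in Apc-deficient, 1195, 1079 and 1363 in p53-deficient and 913, 1098 and 1625 in control intestines. Col6a2 read 892, 919 and 1100.3 in double-deficient, 1505, 1676 and 1715 in Apc-deficient, 1416, 1357 and 1709.97 in p53-deficient and 968, 1207 and 1978 in control intestines. For both, all double-deficient arrays lay below all Apc-deficient arrays, with log2 differences of -0.65 and -0.75 that were not called (adjusted p = 0.21 and 0.19). The log2 ratio of Col6a3 to Col6a2 within an array was -1.45 to -1.31 in double-deficient, -2.56 to -2.0 in Apc-deficient, -1.58 to -1.20 in p53-deficient and -1.29 to -0.92 in control intestines, so the Apc-deficient arrays lay apart from all others. The ratio of Col6a1 to Col6a2 was between -0.44 and -0.09 on all arrays. These ratios show unequal change of the chains and say nothing of which chain was unchanged. They also rest on the probe set: a second Col6a2 probe set, of a kind that can bind several transcripts, read 1036 ± 534 in Apc-deficient and 1295 ± 397 in control intestines, a log2 difference of -0.39 where the first gave 0.30 (-0.36 without scaling between arrays).

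**Figure D3:**
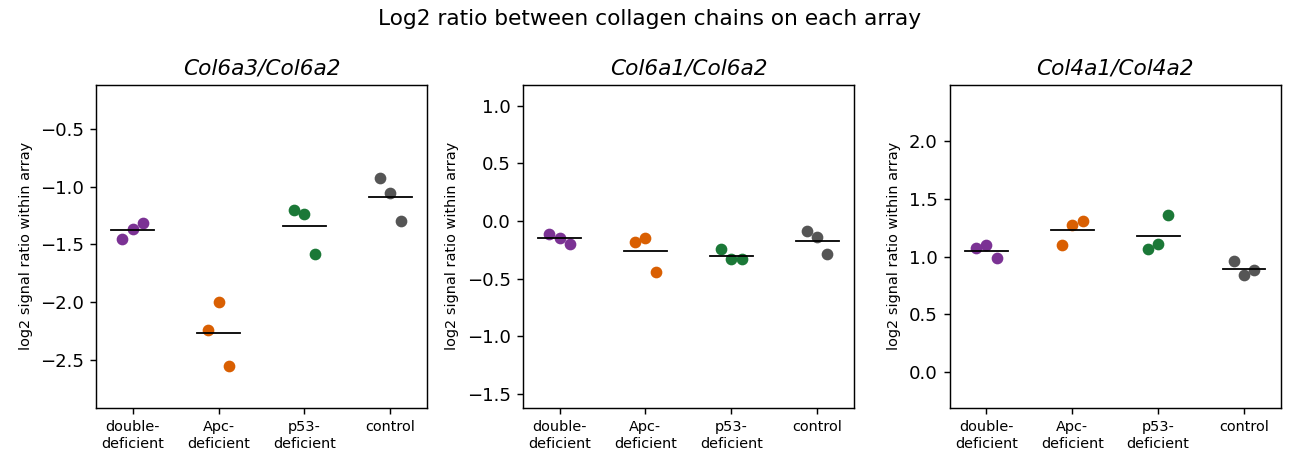
Log2 ratio of the signals of paired collagen chains within each array, for Col6a3 over Col6a2, Col6a1 over Col6a2 and Col4a1 over Col4a2, with 1 point per mouse and a line at the mean of each genotype. The Apc-deficient arrays reach at most -2.0 for Col6a3 over Col6a2, whereas no other array is under -1.58.

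Of the remaining named genes, Col18a1, the basement membrane collagen whose end fragment is endostatin, read 135, 306 and 198 in double-deficient, 328, 360.3 and 266 in Apc-deficient, 299, 247 and 167 in p53-deficient and 240.1, 403 and 313 in control intestines. It was not called in any comparison (adjusted p = 0.21 for double-deficient against control). Col4a5, a type IV chain, was not called by its brighter probe set (adjusted p = 0.39 for double-deficient against control). Its second probe set, detected on all 9 arrays and singled out after its values were seen, read 33.2 ± 5.35 in double-deficient, 50.4 ± 10.7 in Apc-deficient, 92.3 ± 19.6 in p53-deficient and 76.5 ± 10.2 in control intestines. That probe set fell by 1.21 on the log2 scale in double-deficient against control (adjusted p = 0.011) and by 1.47 in double- against p53-deficient intestines (adjusted p = 0.0059), so the 2 probe sets of Col4a5 gave different calls.

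On control array d5wt_110u, smooth muscle markers and part of the collagens were both low. On p53-deficient array GAP940, also low in smooth muscle markers, the median log2 signal of the 36 collagens was 7.01. It was 6.80 on GAP901 and 6.64 on GAP886. The summed collagen signal was 12194 on GAP940, 12717 on GAP901 and 12239 on GAP886. Whether muscle wall content acts on the collagen values was not tested. On control array d5wt_110u, Des, the muscle filament desmin, read 22.1, against 411 on d5wt_323u and 812 on d5wt_474u. All 10 smooth muscle markers were lowest on d5wt_110u among the controls, with a median log2 difference of -2.37 from the mean of the other controls. Of the 36 collagens, 24 (66.7%) were lowest on d5wt_110u, as were 46.0% of all genes tested, and the median difference was -0.42 against -0.10. Among classes, 7 of 10 fibrillar genes (median -0.70) and 4 of 5 type VI genes (median -0.42) were lowest there. By gene, the difference on d5wt_110u was -1.04 for Col4a2, -1.01 for Col5a2, -0.95 for Col4a1 and -0.88 for Col3a1, but -0.33 for Col14a1. Without d5wt_110u and GAP940, a choice made after the data were seen, Col14a1 remained called in both comparisons with control, and the Apc-deficient calls were 4 (Col6a3, Col14a1, Col15a1 and Col27a1). The summed signal of the smooth muscle markers ranged from 11254 to 13278 in double-deficient, 8062 to 13629 in Apc-deficient, 6850 to 17799 in p53-deficient and 4200 to 13643 in control intestines. None of the 10 was called in any comparison, and Lmod1 was undetected on all 9 arrays.

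Several marker lists, that of fibroblasts among them, had lower medians on the arrays of Apc-deleted intestines, where Col14a1 was also lower. The median log2 signal of 8 fibroblast markers was 6.79, 6.65 and 7.13 in double-deficient, 7.29, 6.92 and 7.30 in Apc-deficient, 7.79, 7.94 and 7.80 in p53-deficient and 7.61, 7.78 and 7.99 in control intestines. The Apc-deleted arrays thus lay below all arrays with intact Apc, as for Col14a1. Their summed signal was 1582 to 1856 in double-deficient, 1945 to 2037 in Apc-deficient, 2281 to 3380 in p53-deficient and 2285 to 2722 in control intestines. Thy1, Islr and Dpt were called lower in double-deficient against control and against p53-deficient intestines, and Islr and Dpt in Apc-deficient against control. Over all genes, 7.69%, 6.65% and 12.3% were called lower in these comparisons, in that order. The same shares apply to the calls of the other marker lists below. Dpt, which encodes the matrix protein dermatopontin, read 144 ± 37.7 in double-deficient, 148 ± 41.4 in Apc-deficient, 564 ± 38.7 in p53-deficient and 517 ± 253 in control intestines. None of the 8 was undetected on all 9 arrays. Other fibroblast markers did not move this way, and Pdgfra read 375 ± 126 in double-deficient, 534 ± 24.5 in Apc-deficient, 417 ± 65.5 in p53-deficient and 292 ± 122 in control intestines. Among 9 endothelial markers, Tek and Cldn5 were called lower in both double-deficient and Apc-deficient intestines, against control, and 3 of 8 markers of the enteric nervous system (Elavl4, Ret and Gfap, of which Elavl4 and Gfap were undetected on all 9 arrays) in Apc-deficient intestines. The medians of the 8 enteric nervous system markers were 5.73 to 6.24 in double-deficient, 5.58 to 5.88 in Apc-deficient, 6.50 to 6.58 in p53-deficient and 6.49 to 6.73 in control intestines. Those of the 3 adipocyte markers measured were 6.80 to 6.98 in double-deficient, 6.82 to 7.56 in Apc-deficient, 8.41 to 8.53 in p53-deficient and 7.95 to 8.96 in control intestines, and 1 of the 3, Cidec, was called lower in double-deficient and Apc-deficient intestines against control and in double- against p53-deficient intestines. For both lists every Apc-deleted array lay below every array with intact Apc. Of the 8 enteric nervous system markers only 1 was detected on all 9 arrays and 3 on none, so their medians rest partly on background signal. The adipocyte median is that of 3 genes out of 7 listed. How often all genes separate in this way was not counted, for these lists or for the fibroblast list. The part of these cell types, and of the epithelium, in the collagen values was not tested.

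**Figure D4:**
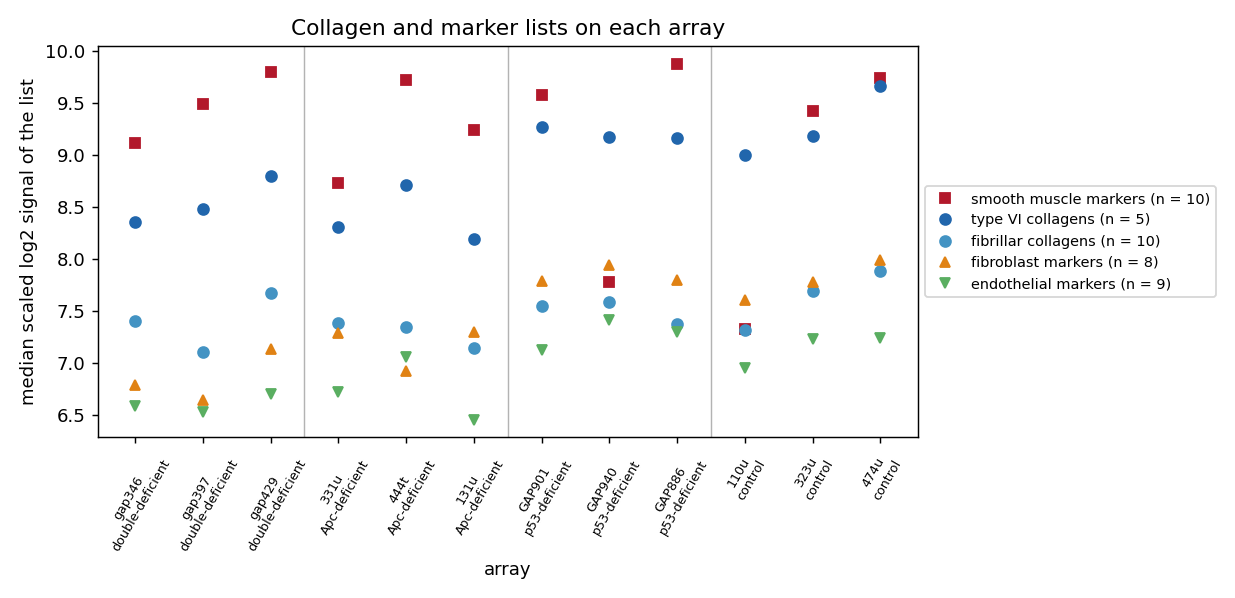
Median log2 scaled signal of type VI and fibrillar collagen genes and of smooth muscle, fibroblast and endothelial marker lists on each array, grouped by genotype, with 1 symbol per list and array. Smooth muscle markers are lowest on control array d5wt_110u (7.33) and fibroblast markers lie between 6.65 and 7.30 on the arrays of Apc-deleted intestines, against 7.61 to 7.99 on the others.

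The genes that act on collagen were taken from lists, whose counts stand beside the share of all genes called in the same comparison, which was 17.2% in double-deficient against control (9.54% higher, 7.69% lower), 31.6% in Apc-deficient against control (19.3% and 12.3%) and 11.7% in double- against p53-deficient intestines (5.01% and 6.65%). Mmp2, a gelatinase that cleaves type IV and denatured collagen, had the smallest adjusted p among them. It read 209.97, 154 and 237 in double-deficient, 372, 329 and 322.6 in Apc-deficient, 593, 711 and 633 in p53-deficient and 481, 668 and 780.3 in control intestines. No genotype with Apc deleted overlapped one with intact Apc, and the double-deficient arrays were also below the Apc-deficient ones. That last difference was not called, and 14.8% of all genes were lower without overlap in that comparison. Lower without overlap against control were 22.4% of all genes in double-deficient and 20.4% in Apc-deficient intestines. In double- against p53-deficient intestines 22% were. Mmp2 fell by 1.68 on the log2 scale in double-deficient (SE 0.24, adjusted p = 0.0035) and by 0.89 in Apc-deficient intestines (adjusted p = 0.020), against control, and by 1.71 in double- against p53-deficient intestines (adjusted p = 0.0034). The double-deficient calls were kept in all 22 settings, and the Apc-deficient call was lost in 5 of 22, among them without d5wt_323u, d5wt_474u or D5fl_131u (adjusted p = 0.051 to 0.073). Of the 9 genes of collagen degradation and its inhibitors, 1 was called lower in double-deficient and 2 in Apc-deficient intestines against control, the second being the undetected inhibitor Timp2, whose call was lost in 7 of 21 settings, among them without d5wt_323u, d5wt_474u, D5fl_331u or D5fl_444t (adjusted p = 0.066 to 0.091). Over all genes, 7.69% and 12.3% were called lower in these comparisons.

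Among 8 collagen receptors, 1 was higher in each of the double-deficient and Apc-deficient comparisons with control. Itga2, the α2 chain of a collagen-binding integrin, read 137, 156 and 191 in double-deficient intestines and 73.3, 36.5 and 64.4 in control intestines, where it was undetected. The fold was 2.88 by the mean signals, without allowance for the spread between mice (adjusted p = 0.0093, limma). That fold is a lower bound only in so far as the control signals are background, and the double-deficient arrays had no usable detection values. This Itga2 call was lost in 2 of 22 settings, without scaling between arrays and without d5wt_474u and gap429 (adjusted p up to 0.063). In Apc-deficient intestines it was Itgb1, the shared β1 chain, that was higher, at 2147 ± 53.4 against 1264 ± 133 in control intestines (log2 difference 0.77, adjusted p = 0.028), a call lost in 11 of 22 settings, among them without d5wt_110u, d5wt_323u, D5fl_331u, D5fl_444t or D5fl_131u (adjusted p = 0.056 to 0.091). With quantile normalisation its log2 difference was 0.41 (adjusted p = 0.19) and without scaling between arrays 0.10 (adjusted p = 0.81). In double- against p53-deficient intestines 1 receptor was higher and 1 lower. Itga2 was higher by 1.21 on the log2 scale (adjusted p = 0.026), a call lost in 7 of 22 settings, among them without gap397, gap429, GAP901, GAP940 or GAP886 (adjusted p = 0.055 to 0.092). Ddr2, a receptor kinase for fibrillar collagen, was lower in double- than in p53-deficient intestines (91.7 ± 14.7 in double-deficient and 185 ± 46.7 in p53-deficient, adjusted p = 0.038), a call lost in 10 of 22 settings, among them without d5wt_323u, gap346, gap397, gap429, GAP901 or GAP886 (adjusted p = 0.056 to 0.14).

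Of 19 genes of collagen synthesis and secretion, 0 were called in double-deficient and 3 in Apc-deficient intestines against control, 1 of them higher and 2 lower (3 of 19, with 31.6% of all genes called). P4ha1, a catalytic subunit of prolyl 4-hydroxylase, read 47.9 ± 15.6 in Apc-deficient and 95.7 ± 10.9 in control intestines (log2 difference -1.05, adjusted p = 0.014). The P4ha1 call was lost in 2 of 22 settings, with only the genotypes compared and without d5wt_474u and gap429 (adjusted p up to 0.064). The other called genes were Plod2, a lysyl hydroxylase, lower but undetected in both genotypes, and Crtap, a partner of prolyl 3-hydroxylase, higher at 339 ± 40.1 in Apc-deficient against 217 ± 36.4 in control intestines (adjusted p = 0.032). Crtap, named after its values were seen, kept this call in 10 of 22 settings. The call was lost with the same sign in 11, among them without d5wt_110u, d5wt_474u, D5fl_331u or D5fl_444t (adjusted p = 0.056 to 0.12). In the other 1, without scaling between arrays, its log2 difference turned to -0.015 (adjusted p = 0.97). In double- against p53-deficient intestines Crtap was also higher, by 0.80 (adjusted p = 0.030), a call lost in 9 of 22 settings, among them without gap346, gap397, gap429, GAP901, GAP940 or GAP886 (adjusted p = 0.064 to 0.10). P4hb, the other subunit of prolyl 4-hydroxylase, fell by 0.95 in double- against p53-deficient intestines (adjusted p = 0.020), as did Sec23a, a coat protein of vesicles that carry procollagen, by 1.14 (adjusted p = 0.024). The P4hb call was lost in 9 of 22 settings, among them without gap397, gap429, GAP901, GAP940 or GAP886 (adjusted p = 0.050 to 0.075), and the Sec23a call in 8 of 22, among them without gap397, gap429, GAP901 or GAP940 (adjusted p = 0.068 to 0.099). Of 9 processing and crosslinking genes, 1 was called, Adamts3 in double-deficient against control, undetected on the 9 arrays and lost in 17 of 21 settings, with adjusted p up to 0.19, among them without d5wt_110u, d5wt_323u, d5wt_474u, D5fl_331u, gap346, gap397, gap429, GAP901, GAP940 or GAP886 (adjusted p = 0.050 to 0.16). Of 14 basement membrane partners, 2 were called in Apc-deficient intestines against control: Lamb1, a laminin chain, was higher at 516 ± 96.7 in Apc-deficient against 285 ± 51.1 in control intestines (adjusted p = 0.025), and Hspg2, which encodes perlecan, was lower at 278 ± 108 in Apc-deficient against 526 ± 83.4 in control intestines (adjusted p = 0.027). Hspg2 was detected on only 1 of these arrays, and its call was lost without d5wt_110u, d5wt_323u, d5wt_474u, D5fl_331u or D5fl_131u (adjusted p = 0.051 to 0.089). Lamb1 lost its call in 8 of 22 settings, among them without d5wt_110u or D5fl_331u (adjusted p = 0.077 to 0.094), and without scaling between arrays its log2 difference was 0.19 (adjusted p = 0.68).

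Of 12 fibril partners, 2 were called in double-deficient and 3 in Apc-deficient intestines against control, where 17.2% and 31.6% of all genes were called. Thbs1, a matrix glycoprotein that activates TGF-β, read 297 ± 111 in double-deficient, 288 ± 73.6 in Apc-deficient, 92.9 ± 5.14 in p53-deficient and 119.8 ± 19.2 in control intestines. It rose by 1.24 on the log2 scale in double-deficient (adjusted p = 0.024) and by 1.25 in Apc-deficient intestines (adjusted p = 0.014), against control. The double-deficient Thbs1 call was lost in 8 of 22 settings, among them without d5wt_110u, d5wt_323u, gap397 or gap429 (adjusted p = 0.059 to 0.090), and the Apc-deficient call in 3 of 22, among them without d5wt_110u (adjusted p = 0.053). Without scaling between arrays the log2 differences were 0.99 (adjusted p = 0.14) and 0.58 (adjusted p = 0.29). Thbs1 was also higher in double- against p53-deficient intestines, by 1.60 (adjusted p = 0.011), a call lost in 3 of 22 settings, among them without gap397 (adjusted p = 0.052). Lum and Bgn, small proteoglycans that bind collagen fibres, fell in 1 comparison each, Lum by 1.19 in Apc-deficient (adjusted p = 0.026) and Bgn by 0.77 in double-deficient intestines (adjusted p = 0.043). The Lum call was lost in 6 of 22 settings, among them without d5wt_323u, d5wt_474u or D5fl_331u (adjusted p = 0.076 to 0.083), and the Bgn call in 15 of 22, among them without d5wt_110u, d5wt_323u, d5wt_474u, D5fl_331u, gap346, gap397, gap429, GAP901, GAP940 or GAP886 (adjusted p = 0.051 to 0.15). The other call in Apc-deficient intestines was Ccn2, a matricellular protein, higher by 1.45 (adjusted p = 0.046; 0.79 without scaling between arrays and 0.82 without d5wt_110u and GAP940) and lost in 16 of 22 settings, among them without d5wt_110u, d5wt_474u, D5fl_331u, D5fl_444t, D5fl_131u, gap346, gap397, gap429, GAP901 or GAP940 (adjusted p = 0.053 to 0.12). In p53-deficient against control intestines none of the genes in these 6 lists was called.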

How the data were processed

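RNA from small intestine (12 mice, 3 per genotype) was hybridised to Affymetrix mouse arrays, 1 per mouse, with biotin-labelled target. For each of 45101 probe sets and each array the authors deposited an intensity on a linear scale, called the signal, together with its detection p-value. The software behind them is not stated. A second deposited table holds scores of 34271 probe sets, that is log signals standardised on each array. Of the detection columns 15 were not used: 12 hold detection calls, and 3 hold p-values whose names give the double-deficient genotype but no mouse. Detection therefore rests on the 9 arrays of the other genotypes, and probe sets expressed only in double-deficient intestines could be missed by the screen.

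Control probe sets (64) were removed, as were those whose detection p was never under 0.2, and 35622 were left. The log2 signal, with a floor of 1 (applied to 775 values), was centred on the mean of its array. One mean per genotype was fitted over all arrays with limma 3.58.1 in R 4.3.3 (8 residual degrees of freedom), with Benjamini-Hochberg adjustment across the whole table. The SD is that of scaled signals of 3 mice. Where a gene was undetected on all arrays of 1 group, its fold is a lower bound on the log2 means, for which that group's signals were raised at least to the lowest signal of probe sets it detected throughout. This bound is an estimate from mean signals and does not allow for the spread between mice. It is a bound only in so far as the undetected group's signals are background. The script was tested on simulated data. The number of arrays limits the precision.

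Gene symbols came from the probe table (27434 probe sets with 1 symbol, 749 with several, 7439 with none). Col17a1 and some other collagens are not analysed here. The members and lists were chosen with earlier results of these data known. Named were all collagens called, the main chains whatever their values, and of each list up to 4 genes with the smallest adjusted p, with Crtap and the second Col4a5 probe set named after their values were seen. SAM, the test of the methods, was not used. Alternative settings were the deposited scores, quantile normalisation, signals left unscaled, no detection screen, a stricter screen (3 or more arrays with detection p under 0.05), a signal floor of 20, a variance trend, fits of only the genotypes compared, other choices of probe set, leaving out each array, leaving out d5wt_474u and gap429, and, added after the data were seen, leaving out d5wt_110u and GAP940.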

Additional observations from a re-analysis of the deposited data

How the results depend on the processing

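The counts of called collagen genes depended on the processing. No called collagen gene changed direction under a setting that kept its probe set. Of the named collagens not called, 3 of 13 in double-deficient against control, 7 of 11 in Apc-deficient against control, 6 of 13 in double- against Apc-deficient and 6 of 13 in double- against p53-deficient intestines changed sign under at least 1 such setting, and 1, 6, 5 and 6 of them did so without scaling between arrays. A second, detected Col6a2 probe set also had the other sign in Apc-deficient against control. Crtap in Apc-deficient against control turned to -0.015 without scaling. In double-deficient against control the 2 calls became 1 without the detection screen, 6 (1 higher, 5 lower) with signals under 20 set to 20, 5 where any probe set of a gene could be called, 0 without d5wt_474u and gap429, and 1 without d5wt_110u and GAP940, with 1 to 3 over the omission of single arrays. In Apc-deficient against control the 7 calls became 20, all lower, without scaling between arrays, 4 with only the genotypes compared, 3 (Col12a1, Col14a1 and Col27a1) without d5wt_474u and gap429, and 4 without d5wt_110u and GAP940, with 3 to 8 over single arrays, the 3 being without d5wt_474u. In p53-deficient against control the 0 calls became 4 without scaling and 2 with signals under 20 set to 20, and stayed at 0 without any single array. In double- against Apc-deficient intestines they were 0 to 1 over single arrays, the 1 being Col11a2, undetected on the 9 arrays with detection values, without D5fl_444t. In double- against p53-deficient intestines the 1 call became 0 without scaling, 2 with the stricter detection screen, 0 without d5wt_474u and gap429, and 2 where any probe set could be called, with 0 to 1 over single arrays (0 without gap397). The interaction had 5 calls, all higher, without scaling and 0 without any single array. Without scaling the median of all probe sets itself shifted by -0.26, -0.66 and -0.56 (double-deficient, Apc-deficient and p53-deficient, each against control), by 0.37 in double- against Apc-deficient, by 0.35 in double- against p53-deficient, and by 0.96 in the interaction. For the other moved counts the cause was not tested. The share of all genes called was not counted under any alternative setting. The counts in this paragraph therefore show how the calls depend on the processing and cannot be read as a result about collagens.

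No paired analysis was possible because the labels carry mouse codes and no replicate numbers that the genotypes share. The limma p-values set each difference against a spread between mice that is pooled over the genotypes and drawn towards that of all probe sets. They rest on 3 mice per genotype and on no other animals. For genes at background signal, 13 of the 36 on every array with detection values, a difference cannot be read as a change in RNA. This holds also for those that were called, Col4a3, Col9a1 and Col27a1.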
